A study of Mus musculus with 6 samples.

Results

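Glycolysis and hypoxia-response genes were examined as a group of 35 genes among the 54532 genes of the RNA-seq count table. The members were chosen by name: 2 glucose transporters, 9 genes for the steps from hexokinase to phosphofructokinase, 9 for the steps from aldolase to pyruvate kinase, 4 for lactate, 2 HIF alpha subunits and 9 targets of HIF. The choice was made with earlier results of these data known. All 35 names were in the table. Aldoa had 2 identifiers, so that the members filled 36 rows. Adm had no read in any library and Epas1 had 1, 0 and 0 reads in the Ctrl shRNA libraries and 1, 4 and 2 in the knockdown libraries, and neither was tested. The other 34 rows passed the filter on low counts.

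The cells were MLE12, an immortalised mouse lung epithelial line. The line was derived from tumours of a mouse carrying the SV40 large T antigen under a surfactant protein C promoter, and the labels give its strain as C57BL/6J. In the knockdown group (n = 3) the cells had been infected at the same time with 2 lentiviruses, carrying Idh3α shRNA and Slc25a1 shRNA, each at a multiplicity of infection of 50. The Ctrl shRNA group (n = 3) received an empty control lentivirus at a multiplicity of infection of 50, and whether its total dose of virus was matched to the 2 viruses of the knockdown cells is not given in the labels. Both groups were changed to fresh medium after 16 h, were cultured for a further 80 h in the same medium with insulin and hydrocortisone, and differed by no other stated agent. Whether the replicates were separate infections is not given in the labels, so p-values measure the spread between these samples, which may be technical. Idh3α is a subunit of the mitochondrial enzyme that oxidises isocitrate, and Slc25a1 carries citrate out of mitochondria. The comparison shows whether transcripts of glucose breakdown and of the hypoxia response differed when both were silenced.

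Glycolysis converts glucose to pyruvate in the cytosol. Glucose enters through transporters of the Slc2a family, is trapped as a phosphate by hexokinase and is committed to breakdown by phosphofructokinase (PFK), an enzyme that citrate inhibits. Pyruvate either enters mitochondria or is reduced to lactate, which leaves the cell through transporters of the Slc16a family. HIF1α and HIF2α (encoded by Hif1a and Epas1) are transcription factor subunits that are degraded in the presence of oxygen. When stable, they bind short DNA elements with the core ACGTG or GCGTG and raise the transcription of many glycolytic genes, as well as of genes for blood vessel growth, pH control and collagen hydroxylation. HIF subunits are controlled mainly at the protein level, which RNA-seq does not measure.

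The libraries held 27273502 to 28535653 reads in the Ctrl shRNA group and 27715153 to 28112519 in the knockdown group. Ctrl shRNA replicate 2 stood apart from the other 5 libraries. It had 16681 genes with a read, against 19902 to 23147, its 100 most abundant genes took 27.2% of reads, against 12.6 to 12.9%, and mitochondrial transcripts took 6.49%, against 1.57 to 1.80%. Fold changes are therefore given with and without it. Idh3a had 79.8, 137 and 93.0 CPM (read counts scaled to library size with TMM factors) in Ctrl shRNA replicates 1 to 3 and 58.5, 57.9 and 55.5 CPM in the knockdown. Slc25a1 had 103, 98.7 and 108 CPM, against 68.9, 69.6 and 63.0 CPM. The groups did not overlap for either gene, and both had lower values in each knockdown library, with a log2 fold change of -0.85 for Idh3a (adjusted p = 0.254, edgeR) and -0.62 for Slc25a1 (adjusted p = 0.104, edgeR). Without Ctrl shRNA replicate 2 both were lower by the test, at -0.60 (adjusted p = 0.0142, edgeR) and -0.66 (adjusted p = 0.00649, edgeR). Of 15 lung epithelial markers, 9 were above 1 CPM in every library, and Sftpd was at 0. Their summed level ran from 2078 to 2253 CPM in Ctrl shRNA and from 1995 to 2177 CPM in the knockdown. Krt19, the most abundant of them, was at 693 to 853 CPM against 840 to 930 CPM. The alveolar markers on the list differed among themselves. For Abca3 (log2 fold change 0.06, or -0.04 without Ctrl shRNA replicate 2), Sftpb (0.15, or -0.22) and Hopx (-0.63, or -0.39) the groups overlapped, while Nkx2-1 (-0.20, or -0.23), Sftpc and Ager had lower values in every knockdown library, Sftpc at 27.2 to 35.9 CPM against 44.1 to 97.3 CPM and Ager at 307 to 350 CPM against 365 to 470 CPM. Sftpc and Ager were lower without Ctrl shRNA replicate 2 (Sftpc -0.65, adjusted p = 0.0438, and Ager -0.49, adjusted p = 0.0223, edgeR). With all libraries neither passed in edgeR or DESeq2, and both passed in limma with quality weights (adjusted p = 0.0184 and 0.00605). Nkx2-1 passed in limma with quality weights (adjusted p = 0.0294) and in DESeq2 without Ctrl shRNA replicate 2 (adjusted p = 0.0243), but not in edgeR with or without that replicate. Epcam also had lower values in every knockdown library (2.39 to 3.20 CPM against 3.24 to 4.01 CPM). Cdh1 had higher values in each (75.7 to 83.8 CPM against 68.4 to 74.9 CPM), and neither of these genes passed in any fit. Summed fibroblast markers (8 genes) ran from 346 to 1235 CPM in Ctrl shRNA, the highest value being replicate 2, and from 317 to 345 CPM in the knockdown. Most of that sum was Dcn, at 320, 1211 and 354 CPM in Ctrl shRNA replicates 1 to 3 and 297 to 318 CPM in the knockdown. Col1a1 overlapped, at 19.7 to 22.7 CPM against 16.5 to 22.8 CPM. Pdgfra was higher in every knockdown library (2.23 to 2.68 CPM against 3.43 to 3.91 CPM), and 5 fibroblast markers were under 1 CPM in every library. Endothelial markers (5 genes) summed to 36.7 to 45.8 CPM against 31.9 to 33.3 CPM, and leukocyte markers (7 genes, 3 at 0 in every library) to 1.92 to 2.58 CPM against 2.57 to 3.06 CPM. Tek made up most of the endothelial sum (36.0 to 45.8 CPM against 31.5 to 32.3 CPM). Cd68 made up most of the leukocyte sum (1.65 to 1.92 CPM against 2.34 to 2.73 CPM). The part of these markers in the results was not tested.

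Among the members, the knockdown libraries held more transcript of the main glucose transporter Slc2a1 (1.79-fold), of hexokinase Hk2 (1.90-fold), of enolase Eno1 (1.37-fold), of lactate dehydrogenase Ldha (a mean of 551 against 424 CPM), of PFK Pfkl (1.29-fold) and of the lactate exporter Slc16a3 (1.37-fold). The 8 HIF targets tested outside glycolysis had log2 fold changes on both sides of 0, from -0.69 (Ankrd37), -0.43 (Car9) and -0.36 (Ndrg1) to 0.12 (Vegfa) and 0.20 (Bhlhe40), and Hif1a was at 0.04. Ankrd37 was at 0.51 without Ctrl shRNA replicate 2. With all 6 libraries, no member passed the test (edgeR, Benjamini-Hochberg adjusted p under 0.05 over 15307 genes), and few genes of the whole table did. Calls made up 0.0588% of genes for higher and 0.00653% for lower expression in the knockdown. By unadjusted p under 0.05 in edgeR, 8 members were higher and 2 were lower, where 7.47% of all genes were higher and 6.65% lower. The groups did not overlap for 10 members that were higher and 2 that were lower, against 14.7% and 10.7% of all genes.

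Without Ctrl shRNA replicate 2, 3 members were higher in the knockdown (Slc2a1, Hk2 and Ldha) and 0 were lower in the same edgeR test, where 1.11% of 15709 genes were higher and 0.675% lower. By DESeq2 on all 6 libraries 6 members were higher (the same 3 with Pfkl, Eno1 and Slc16a3) and 0 lower, against 2.00% and 1.40% of the 12922 genes with an adjusted p. DESeq2 without Ctrl shRNA replicate 2 added Pgam1 as higher and gave Pfkp and Aldoc as lower, for 7 and 2 members against 4.47% and 3.08% of genes. Limma with a weight for the quality of each sample called these same 7 and Pfkfb3 higher, and the same 2 lower, against 8.67% and 6.34% of genes. The weights were 0.621, 0.101 and 3.19 for Ctrl shRNA replicates 1 to 3, so that replicate 3 counted most among the controls in that fit. For the knockdown replicates they were 2.82, 0.948 and 1.88. The median log2 fold change was 0.12 over the 34 members tested and -0.01 over all genes, and 22 members were above 0. Without Ctrl shRNA replicate 2 the median was 0.11, against -0.02 over all genes, and 20 members were above 0.

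**Figure D1:**
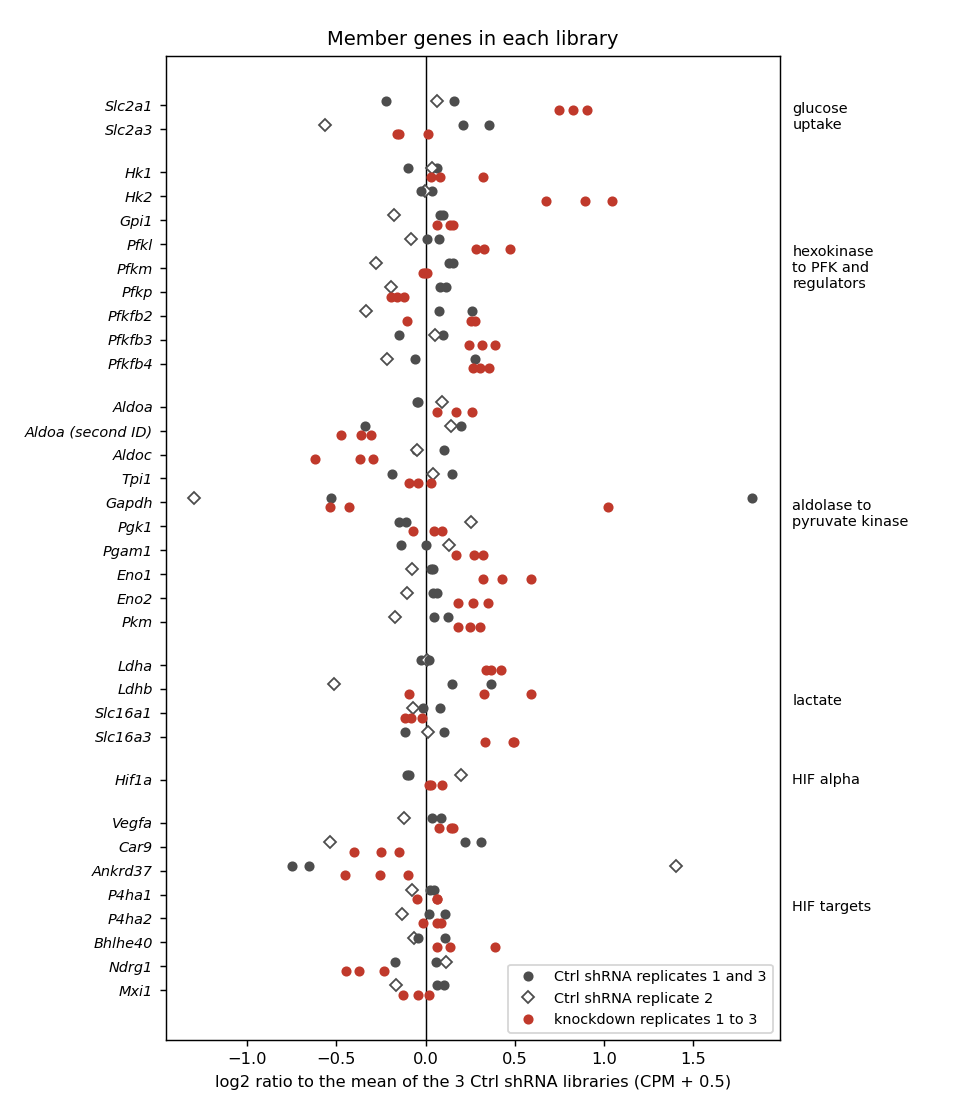
Each of the 34 member rows tested, ordered by step, with 1 point per library on the log2 scale relative to the mean of the 3 Ctrl shRNA libraries (CPM + 0.5). Slc2a1, Hk2, Pfkl, Eno1, Ldha and Slc16a3 have all 3 knockdown libraries (red) to the right of all 3 Ctrl shRNA libraries (grey), while the open diamond of Ctrl shRNA replicate 2 lies far from replicates 1 and 3 for Ankrd37.

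Ctrl shRNA replicate 2 was also set against the other controls gene by gene. Of the 32 members with a mean of at least 1 CPM in replicates 1 and 3, 25 (78.1%) lay within 1.25-fold of that mean in replicate 2, compared with 53.3% of 12924 genes. A difference of at least 2-fold was seen for 3 members, Gapdh, Ankrd37 and Car9, and for 16.2% of genes. The members were not matched to those genes for level of expression, which also affects how closely libraries match.

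**Figure D2:**
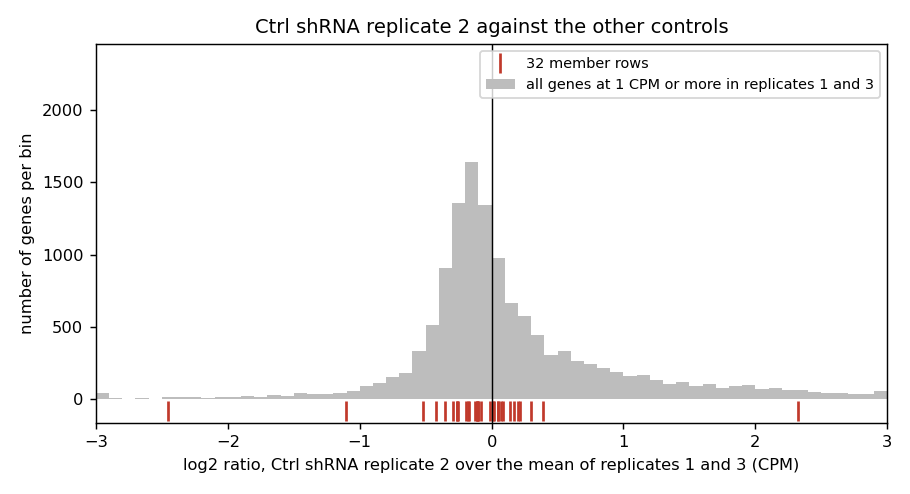
Histogram of the log2 ratio of Ctrl shRNA replicate 2 to the mean of Ctrl shRNA replicates 1 and 3 in CPM, for 12924 genes (grey, number of genes per bin, with genes beyond the axis in the end bins) and for 32 members (red ticks). The ticks gather near 0, with Gapdh and Car9 far to the left and Ankrd37 far to the right.

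The promoters of the 3 members called without Ctrl shRNA replicate 2 are shown because HIF acts through the core named above. The windows come from RefSeq (GRCm38.p6) and each stretch runs 5′ to 3′ on the strand of the gene, from 230 bases before the start site to the last core before it. Capitals mark ACGTG or GCGTG on either strand (read as CACGT or CACGC on the other strand). The palindrome CACGTG counts once on each strand.

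Slc2a1, chr4:119108515-119108713 (+): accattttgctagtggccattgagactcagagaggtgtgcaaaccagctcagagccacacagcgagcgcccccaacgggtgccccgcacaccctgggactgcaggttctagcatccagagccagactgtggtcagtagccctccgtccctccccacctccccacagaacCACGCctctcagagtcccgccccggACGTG
Hk2, chr6:82774502-82774684 (-): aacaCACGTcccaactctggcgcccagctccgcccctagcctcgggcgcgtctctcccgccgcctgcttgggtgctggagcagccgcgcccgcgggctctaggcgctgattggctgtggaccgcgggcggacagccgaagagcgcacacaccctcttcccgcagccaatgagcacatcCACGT
Ldha, chr7:46845574-46845774 (+): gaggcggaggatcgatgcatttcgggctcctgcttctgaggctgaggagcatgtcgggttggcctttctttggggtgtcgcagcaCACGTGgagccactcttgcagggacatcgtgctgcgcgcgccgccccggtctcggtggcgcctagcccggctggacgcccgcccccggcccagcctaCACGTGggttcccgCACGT

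The Slc2a1 stretch held 2 cores, starting 61 and 36 bases before the start site. The Hk2 stretch held 2, at 226 and 52 bases. Ldha has 2 windows, and the richer is shown: the other, chr7:46846832-46847131, held 2 cores and no CACGTG. The Ldha stretch shown held 5 matches, of which the palindromes at 145 and 48 bases gave 4 and the core at 34 bases the other. Over the windows from 250 bases before to 50 after a start site, 39 of 48 windows of 31 matched members held at least 1 core (81.2%), compared with 43.8% of all 32851 windows of 27025 genes. Windows of close start sites overlap, as for Aldoa, Eno1 and Pfkm, so that 1 core can be counted more than once. The core contains CG, and among windows with at least 20 CG the shares were 91.7% of 24 member windows and 73.6% of 8701. CACGTG was in 12.5% of member windows and 7.15% of all windows. A match is a description of the letters, and whether HIF bound there was not measured. Members that were not called also held cores: 8 of 10 windows of the HIF targets had at least 1, among them 1 of the 2 Vegfa windows.

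Glucose uptake. Slc2a1 encodes GLUT1, the transporter through which most cultured cells take up glucose (ENSMUSG00000028645, chr4:119108711-119137983 on GRCm38). It had 16.3, 15.3 and 12.4 CPM in Ctrl shRNA replicates 1 to 3 and 27.7, 24.9 and 26.2 CPM in the knockdown replicates. The lowest knockdown library was above the highest Ctrl shRNA library. Its log2 fold change was 0.84 ± 0.13 (SE) with all libraries (adjusted p = 0.144, edgeR) and 0.86 ± 0.13 without Ctrl shRNA replicate 2 (adjusted p = 0.0180, edgeR), with a range of adjusted p over the alternatives from 4.60e-07 to 0.645. Slc2a3, which encodes GLUT3, the high-affinity transporter of neurons, was close to the detection limit, with 19, 3 and 21 reads in Ctrl shRNA and 11, 11 and 14 in the knockdown. The groups overlapped, with a log2 fold change of -0.35 ± 0.59 and of -0.75 ± 0.41 without Ctrl shRNA replicate 2, and a gene on the same strand, Gm4482, shares 742 bases of its span. Per length, Slc2a1 made up 97.2 to 99.5% of the summed FPKM of both transporters in every library.

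Hexokinase to PFK. Hk2, the inducible hexokinase of muscle and of many tumours (ENSMUSG00000000628, chr6:82725025-82774454), was at 6.46, 6.28 and 6.17 CPM in Ctrl shRNA and at 12.1, 10.3 and 13.5 CPM in the knockdown. The 3 controls were almost level, Ctrl shRNA replicate 2 included, and each knockdown library lay above them. This corresponded to a log2 fold change of 0.93 ± 0.14 (SE) with all libraries (adjusted p = 0.144, edgeR) and 0.92 ± 0.15 without Ctrl shRNA replicate 2 (adjusted p = 0.0229, edgeR; range over the alternatives 1.98e-05 to 0.645). Hk1, the constitutive hexokinase, had a log2 fold change of 0.15 ± 0.10 with overlapping groups, and of 0.15 without Ctrl shRNA replicate 2. On the FPKM scale Hk1 remained the more abundant of the pair, and Hk2 made up 12.4% ± 0.461 (SD, n = 3) of their sum in Ctrl shRNA and 19.7% ± 3.71 in the knockdown. Every knockdown library had a larger Hk2 share, from 15.6 to 22.9%, than any control, from 12.1 to 12.9%.

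Gpi1, the glucose phosphate isomerase of the next step, was the most abundant of these 9 genes per length (39.2 FPKM over all libraries). Its values were 258, 213 and 255 CPM in Ctrl shRNA and 266, 268 and 252 CPM in the knockdown. The groups overlapped, and Ctrl shRNA replicate 2 was the lowest library. In the fit, its log2 fold change was 0.11 ± 0.10 with all libraries and 0.02 ± 0.07 without that replicate.

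The 3 PFK genes differed in the sign of their log2 fold changes. Pfkl, the liver type (ENSMUSG00000020277, chr10:77986947-78010083), had 64.8, 58.0 and 61.9 CPM in Ctrl shRNA and 85.8, 74.9 and 77.3 CPM in the knockdown, with no overlap. Its log2 fold change was 0.36 ± 0.09 (adjusted p = 0.254, edgeR; 0.0463, DESeq2) and 0.31 ± 0.08 without Ctrl shRNA replicate 2 (adjusted p = 0.0943, edgeR), and adjusted p ran from 0.0138 to 0.675 over the alternatives. Pfkp, the platelet type, had 90.4, 74.7 and 92.5 CPM in Ctrl shRNA and 78.5, 74.6 and 76.5 CPM in the knockdown. Ctrl shRNA replicate 2 was at the level of the knockdown, so that the groups overlapped by that library alone. The log2 fold change of Pfkp was -0.17 ± 0.10 and without that replicate -0.27 ± 0.06 (adjusted p = 0.0824, edgeR; 0.0139, DESeq2), with adjusted p over the alternatives from 0.0139 to 0.982. Pitrm1, on the other strand, overlaps 748 bases of Pfkp and held 132% as many reads, and strand was not stated in the counting, so that reads of the overlap could belong to either gene. Pfkm, the muscle type, had a log2 fold change of -0.02 ± 0.13 with all libraries and -0.15 ± 0.06 without Ctrl shRNA replicate 2, and shares 1156 bases with Senp1 on the other strand.

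By FPKM, Pfkm was the main PFK transcript in every library, at 56.2 to 62.5% of the sum of the 3 genes. The share of Pfkl was 23.2% ± 2.02 (SD, n = 3) in Ctrl shRNA and 28.4% ± 1.45 in the knockdown, and the share of Pfkp was 16.0% ± 0.296 and 13.7% ± 0.0761. For both the groups did not overlap, with Pfkl higher and Pfkp lower in each knockdown library.

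The Pfkfb genes encode the enzymes that make and remove the sugar bisphosphate that activates PFK. Pfkfb3, the form with the strongest kinase activity and a known HIF target, was between 16.7 and 19.9 CPM in Ctrl shRNA and between 22.1 and 24.5 CPM in the knockdown, without overlap. The log2 fold change was 0.32 ± 0.10 (adjusted p = 0.338, edgeR), and 0.33 ± 0.11 without Ctrl shRNA replicate 2 (adjusted p = 0.153, edgeR; range over the alternatives 0.0183 to 0.675). Pfkfb4 (log2 fold change 0.31 ± 0.16) and Pfkfb2 (0.13 ± 0.19) had overlapping groups, and without Ctrl shRNA replicate 2 they were at 0.19 ± 0.14 and -0.03 ± 0.14, so that Pfkfb2 changed sign. Pfkfb2 shares 7032 bases of its span with Yod1 on the other strand. Over the 9 genes of this step the median log2 fold change was 0.15 with all libraries and 0.15 without Ctrl shRNA replicate 2.

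**Figure D3:**
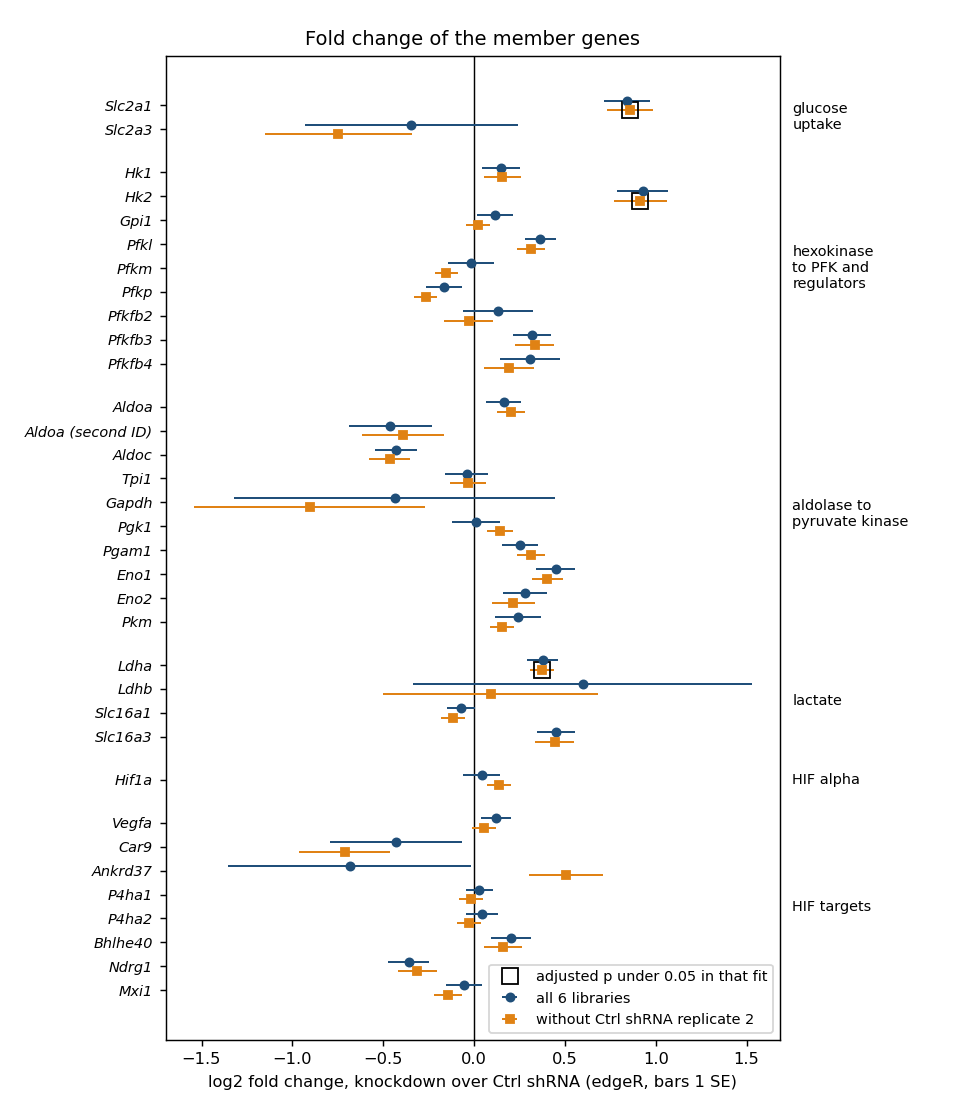
Log2 fold change (knockdown over Ctrl shRNA) with 1 SE for each member tested, from edgeR on all 6 libraries (blue circles) and without Ctrl shRNA replicate 2 (orange squares). Slc2a1, Hk2 and Ldha (boxed, adjusted p under 0.05 in the fit on 5 libraries) lie at similar values in both fits, while Ankrd37 moves from -0.69 to 0.51.

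Aldolase to pyruvate kinase. Pkm, pyruvate kinase, was the most abundant member per length (282 FPKM over all libraries). It had 1328, 1139 and 1398 CPM in Ctrl shRNA and 1588, 1457 and 1528 CPM in the knockdown. The groups did not overlap, but Ctrl shRNA replicate 2 was well below the other controls. Its estimate on the log2 scale was 0.24 ± 0.13 (adjusted p = 0.384, edgeR) and 0.15 ± 0.07 without that replicate (adjusted p = 0.249, edgeR; range over the alternatives 0.0639 to 0.694). The Pkm row sums over the splice forms PKM1 and PKM2, which the table does not separate.

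Eno1, the main enolase (ENSMUSG00000063524, chr4:150236721-150248879), had 452, 420 and 456 CPM in Ctrl shRNA and 594, 666 and 552 CPM in the knockdown. All knockdown libraries were above all controls. This gave a log2 fold change of 0.45 ± 0.11 (adjusted p = 0.256, edgeR; 0.0115, DESeq2) and 0.40 ± 0.09 without Ctrl shRNA replicate 2 (adjusted p = 0.0632, edgeR), and adjusted p over the alternatives ran from 0.000535 to 0.675. The gene shares 26.0% of its 50-base stretches with other genes. Its copies, chiefly Eno1b, held 39.3% of the reads of the sum, so that the count of Eno1 alone is uncertain. Eno1 and its copies together gave 744, 708 and 769 CPM in Ctrl shRNA and 996, 1054 and 914 CPM in the knockdown, a log2 ratio of 0.42 with the groups still apart, or 0.39 without Ctrl shRNA replicate 2.

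Aldoc, the brain-type aldolase, was at 29.5, 29.5 and 32.9 CPM in Ctrl shRNA and 23.6, 24.9 and 19.8 CPM in the knockdown. Each knockdown library was below each control, in contrast to the other genes of this step whose groups did not overlap. The log2 fold change was -0.43 ± 0.11 (adjusted p = 0.292, edgeR) and -0.47 ± 0.11 without Ctrl shRNA replicate 2 (adjusted p = 0.0843, edgeR; 0.0116, DESeq2), with adjusted p over the alternatives from 0.0116 to 0.717. Aldoa, the main aldolase, had overlapping groups only through Ctrl shRNA replicate 2 and a log2 fold change of 0.16 ± 0.10 at its first identifier (ENSMUSG00000030695), or 0.20 ± 0.08 without that replicate. At the second (ENSMUSG00000114515, chr7:126800790-126809108) the values were 2.75, 4.05 and 4.22 CPM in Ctrl shRNA and 2.82, 2.70 and 2.46 CPM in the knockdown. The groups overlapped there, with a log2 fold change of -0.46 ± 0.23, or -0.39 ± 0.22 without Ctrl shRNA replicate 2. Aldoc made up 6.37% ± 0.597 (SD, n = 3) of the FPKM of the aldolases in Ctrl shRNA and 4.34% ± 0.231 in the knockdown, without overlap.

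Of the remaining enzymes, Pgam1 (phosphoglycerate mutase) had a log2 fold change of 0.25 ± 0.10, and Eno2, the neuronal enolase, of 0.28 ± 0.12, and for both each knockdown library was above each control. Tpi1 (triosephosphate isomerase, -0.04 ± 0.12) and Pgk1 (phosphoglycerate kinase, 0.01 ± 0.13) had overlapping groups. Without Ctrl shRNA replicate 2 the values were 0.31 for Pgam1, 0.22 for Eno2, -0.03 for Tpi1 and 0.14 for Pgk1. Pgk1 and Pgam1 share 53.9% and 36.2% of their 50-base stretches with other genes, but the copies took under 1% of the summed reads. The value of Gapdh, the dehydrogenase often used as a reference gene, cannot be interpreted alone. Gapdh had 82.8, 9.01 and 15.7 CPM in Ctrl shRNA and 16.9, 47.1 and 15.7 CPM in the knockdown, with the highest value in Ctrl shRNA replicate 1. There were 52 other genes with at least 5% of its 50-base stretches, and these took 93.0% of the summed reads. The gene Gm13394 alone held 12083 reads in Ctrl shRNA replicate 1. Gapdh and these copies together gave 489, 573 and 426 CPM in Ctrl shRNA and 476, 492 and 414 CPM in the knockdown, with overlapping groups and a log2 ratio of -0.11, or 0.011 without Ctrl shRNA replicate 2. The median log2 fold change of the 10 rows of this step was 0.09 with all libraries and 0.15 without Ctrl shRNA replicate 2.

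**Figure D4:**
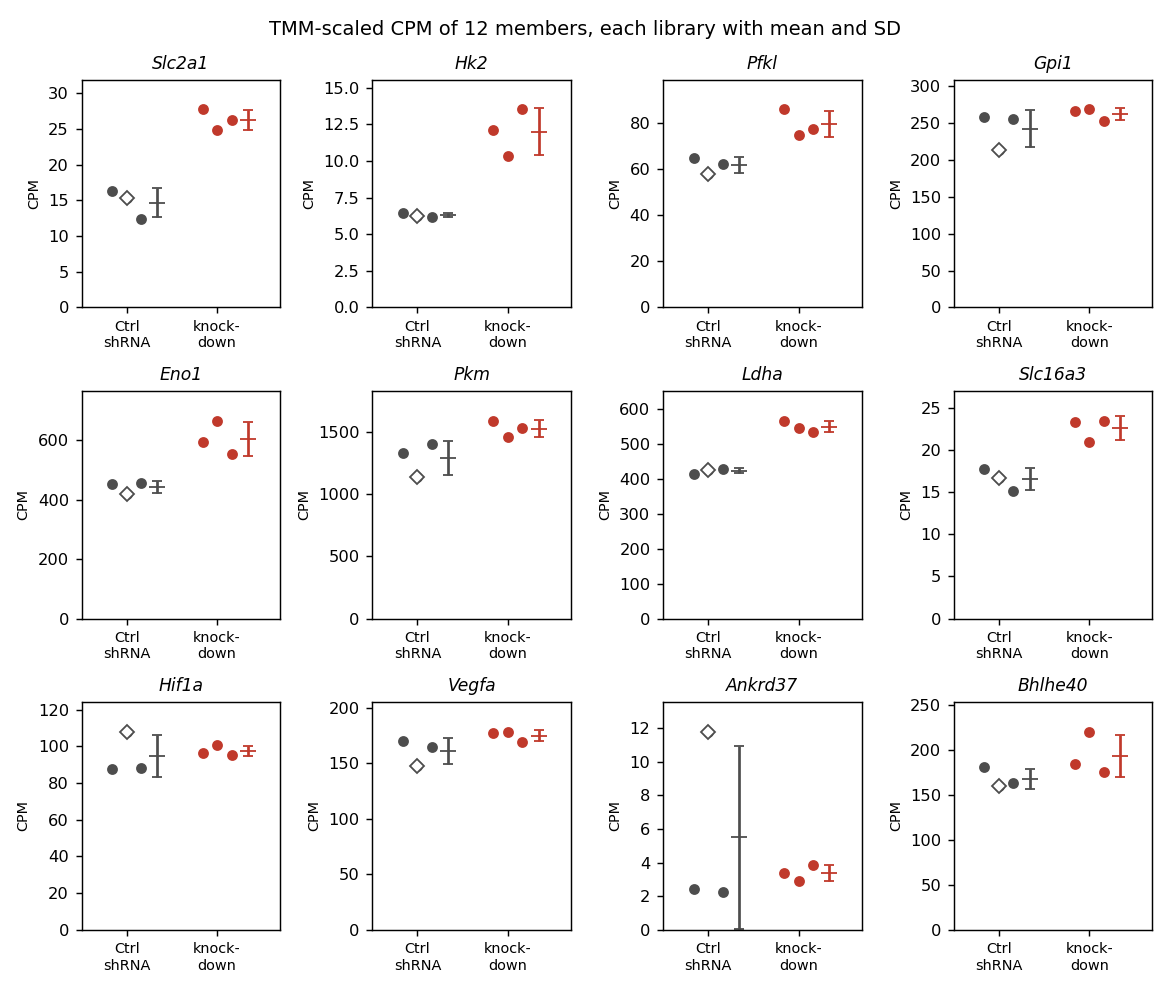
CPM of 12 members in each library (points, with Ctrl shRNA replicate 2 as an open diamond) and the mean with SD of each group (bars, n = 3), with axes from 0. Slc2a1, Hk2, Pfkl, Eno1, Pkm, Ldha and Slc16a3 show no overlap between the groups, and Gpi1, Hif1a, Vegfa, Ankrd37 and Bhlhe40 overlap.

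Lactate. Ldha encodes the subunit of lactate dehydrogenase that favours the making of lactate from pyruvate (ENSMUSG00000063229, chr7:46841475-46855627). It had 416, 427 and 429 CPM in Ctrl shRNA and 568, 548 and 536 CPM in the knockdown. The libraries of each group were close to each other, and the groups were far apart relative to that spread. For this gene the log2 fold change was 0.38 ± 0.08 (adjusted p = 0.245, edgeR) and 0.37 ± 0.07 without Ctrl shRNA replicate 2 (adjusted p = 0.0325, edgeR; range over the alternatives 1.17e-06 to 0.675). Ldhb, the subunit of oxidative tissues, was nearly absent, with 9, 0 and 12 reads in Ctrl shRNA and 5, 12 and 17 in the knockdown, and Ldha made up 99.8 to 100% of their summed FPKM in every library. Its fitted log2 fold change was the highest of this step, at 0.60 ± 0.93, with overlapping groups, and was 0.09 ± 0.59 without Ctrl shRNA replicate 2.

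Slc16a3, or MCT4, exports lactate from glycolytic cells (ENSMUSG00000025161, chr11:120948480-120960868). It was at 17.8, 16.7 and 15.2 CPM in Ctrl shRNA and 23.4, 20.96 and 23.5 CPM in the knockdown, without overlap. As a log2 fold change the difference was 0.45 ± 0.10 (adjusted p = 0.249, edgeR; 0.0326, DESeq2) and 0.44 ± 0.11 without Ctrl shRNA replicate 2 (adjusted p = 0.0870, edgeR), with adjusted p over the alternatives from 0.00790 to 0.675. Slc16a1, or MCT1, which carries lactate in either direction, had 162, 156 and 173 CPM in Ctrl shRNA and 154, 161 and 151 CPM in the knockdown. These groups overlapped, with a log2 fold change of -0.07 ± 0.08, or -0.12 ± 0.07 without Ctrl shRNA replicate 2. Slc16a1 was the more abundant of the pair by FPKM, and the share of Slc16a3 was 7.79% ± 0.846 (SD, n = 3) in Ctrl shRNA and 10.8% ± 0.920 in the knockdown, without overlap. The median of the 4 lactate genes was 0.41 with all libraries and 0.23 without Ctrl shRNA replicate 2, the difference coming from Ldhb, which had no read in that replicate.

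**Figure D5:**
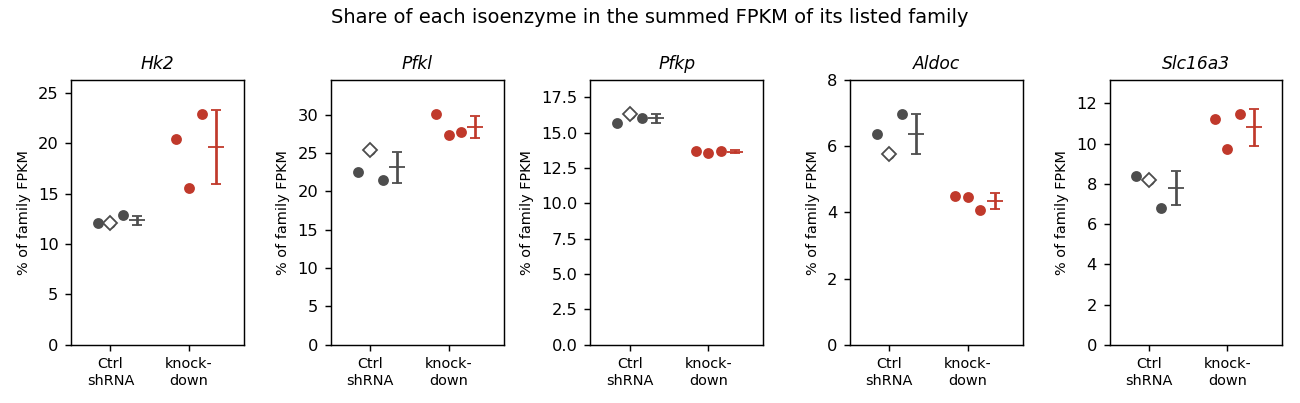
Share of Hk2 (of Hk1 and Hk2), Pfkl and Pfkp (of the 3 PFK genes), Aldoc (of Aldoa and Aldoc) and Slc16a3 (of Slc16a1 and Slc16a3) in the summed FPKM of the genes named, in percent, per library with the mean and SD of each group (n = 3, Ctrl shRNA replicate 2 as an open diamond). Hk2, Pfkl and Slc16a3 take larger shares and Pfkp and Aldoc smaller shares in all 3 knockdown libraries than in any Ctrl shRNA library.

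Summed over the 25 rows of glucose uptake, glycolysis and lactate, the level was 4500 ± 142 CPM (SD, n = 3) in Ctrl shRNA and 5150 ± 136 CPM in the knockdown, a ratio of 1.14, and 1.13 without Ctrl shRNA replicate 2. The 3 controls ran from 4352 to 4635 CPM and the 3 knockdown libraries from 5007 to 5278 CPM. Such a sum is led by Pkm and the other abundant enzymes and was not tested, since the members were chosen with earlier results known.

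HIF subunits and HIF targets. Hif1a was at 87.7, 108 and 88.3 CPM in Ctrl shRNA and at 96.3, 101 and 95.3 CPM in the knockdown. The knockdown libraries lay between Ctrl shRNA replicate 2 and the other 2 controls. The log2 fold change was 0.04 ± 0.10 with all libraries and 0.14 ± 0.06 without Ctrl shRNA replicate 2 (adjusted p = 0.278, edgeR; range over the alternatives 0.122 to 0.977).

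Vegfa, the vascular growth factor and the most abundant of these targets per length (39.3 FPKM), had 170, 148 and 164 CPM in Ctrl shRNA and 177, 178 and 169 CPM in the knockdown. The lowest knockdown library was below the highest control. On the log2 scale the fold change was 0.12 ± 0.08 with all libraries and 0.05 ± 0.06 without Ctrl shRNA replicate 2 (adjusted p = 0.680, edgeR; range over the alternatives 0.249 to 0.730). Both alpha subunits of the collagen prolyl hydroxylase were close to 0 on the log2 scale, P4ha1 at 0.03 ± 0.07 and P4ha2 at 0.04 ± 0.09, and both turned to -0.02 and -0.03 without Ctrl shRNA replicate 2. Bhlhe40, a transcriptional repressor that is also a clock gene, was the highest target with all libraries (Ankrd37 was without Ctrl shRNA replicate 2), with 181, 160 and 163 CPM in Ctrl shRNA and 184, 220 and 176 CPM in the knockdown. Knockdown replicate 2 was well above the rest and the groups overlapped, with a log2 fold change of 0.20 ± 0.11, or 0.16 ± 0.10 without Ctrl shRNA replicate 2.

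Ndrg1, a stress-response gene that hypoxia induces in many cells, was lower in each knockdown library (21.4 to 24.9 CPM) than in each control (26.0 to 31.8 CPM). Its log2 fold change was -0.36 ± 0.11 (adjusted p = 0.327, edgeR) and -0.31 ± 0.11 without Ctrl shRNA replicate 2 (adjusted p = 0.168, edgeR; range over the alternatives 0.0667 to 0.760). Car9, the carbonic anhydrase that serves as a common marker of hypoxia, was low, at 0.911 to 2.04 CPM in Ctrl shRNA and 1.05 to 1.34 CPM in the knockdown, with a log2 fold change of -0.43 ± 0.36. Ctrl shRNA replicate 2 was the lowest library for Car9. Without it, the other controls (2.04 and 1.88 CPM) lay above all knockdown libraries and the log2 fold change was -0.71 ± 0.25 (adjusted p = 0.175, edgeR; range over the alternatives 0.0767 to 0.801). Mxi1, an antagonist of Myc, was at -0.05 ± 0.10, and at -0.14 ± 0.08 without that replicate. Ankrd37 had 2.45, 11.8 and 2.27 CPM in Ctrl shRNA and 3.39, 2.90 and 3.84 CPM in the knockdown, and Ctrl shRNA replicate 2 alone set its direction. In log2 terms the difference was -0.69 ± 0.67 with all libraries and 0.51 ± 0.20 without that replicate (adjusted p = 0.221, edgeR; range over the alternatives 0.111 to 0.882). Lrp2bp and Ufsp2 lie across Ankrd37 on the other strand. The 8 targets tested had a median of -0.01 with all libraries, 4 above and 4 below 0, and of -0.02 without Ctrl shRNA replicate 2, 3 above and 5 below 0, and their summed level was 622 ± 33.0 CPM (SD, n = 3) in Ctrl shRNA and 656 ± 37.9 CPM in the knockdown, with overlapping ranges. Adm, the vasodilator peptide adrenomedullin, had no read among 27273502 to 28535653 per library, which allows a level of up to 0.0969 to 0.152 CPM (3 counts per library on the TMM scale, counting error only).

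Other genes of these pathways were counted by list. Of 109 rows, 83 were tested, with a median log2 fold change of 0.00 and 42 above 0. None passed edgeR with all 6 libraries. By unadjusted p in edgeR 16 were higher and 7 lower, where 7.47% and 6.65% of all genes were, and DESeq2 called 4 higher and 3 lower, where it called 2.00% and 1.40% of all genes. Without Ctrl shRNA replicate 2, edgeR called 2 higher and 3 lower, where it called 1.11% and 0.675% of all genes. Among 4 other glucose transporters, 9 other glycolytic isoenzymes and 4 other genes of lactate transport tested, 0 passed in these edgeR fits or in DESeq2 on all libraries. DESeq2 without Ctrl shRNA replicate 2 called the transporter Slc2a6 (0.55) and the isoenzymes Adpgk (0.31) and Eno1b (0.28) higher, where it called 4.47% of all genes higher. Limma with quality weights called 3 isoenzymes higher and 1 lower, and 1 transporter lower, where it called 8.67% and 6.34% of all genes. By unadjusted p in edgeR, 3 of the isoenzymes were higher and 1 was lower, beside the same 7.47% and 6.65% of all genes.

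In the side branches and gluconeogenesis (19 tested), Pgd, the phosphogluconate dehydrogenase of the pentose phosphate pathway, had 183, 163 and 191 CPM in Ctrl shRNA and 247, 227 and 239 CPM in the knockdown. The groups did not overlap, with a log2 fold change of 0.41 (adjusted p = 0.245, edgeR; 0.0164, DESeq2), and 0.33 without Ctrl shRNA replicate 2 (adjusted p = 0.0558, edgeR). Pck2, the mitochondrial enzyme that makes phosphoenolpyruvate from oxaloacetate, had 94.4, 81.9 and 97.2 CPM in Ctrl shRNA and 72.2, 65.7 and 62.0 CPM in the knockdown. Each knockdown library was lower, with a log2 fold change of -0.45 (adjusted p = 0.245, edgeR) and -0.53 without Ctrl shRNA replicate 2 (adjusted p = 0.0174, edgeR).

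Among 14 genes of oxygen sensing and HIF partners tested, Cited2, which competes with HIF1α for its coactivator, had 35.3, 33.7 and 34.5 CPM in Ctrl shRNA and 49.5, 55.5 and 50.3 CPM in the knockdown. The groups were apart, with a log2 fold change of 0.58 (adjusted p = 0.111, edgeR) and 0.56 without Ctrl shRNA replicate 2 (adjusted p = 0.0177, edgeR). Arnt2, a partner of HIF alpha subunits, was low, at 0.405 to 0.743 CPM against 1.18 to 2.02 CPM, with a log2 fold change of 1.44 (adjusted p = 0.288, edgeR; 0.0352, DESeq2), and 1.22 without Ctrl shRNA replicate 2 (adjusted p = 0.120, edgeR).

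Among 35 other HIF targets tested, edgeR without Ctrl shRNA replicate 2 called 1 higher and 2 lower, where it called 1.11% and 0.675% of all genes, and DESeq2 on all libraries called 1 higher and 2 lower, where it called 2.00% and 1.40%. DESeq2 without that replicate called 2 higher and 4 lower (4.47% and 3.08% of all genes), the added genes being Mif as higher and Ddit4 and Bnip3l as lower. Limma with quality weights called 4 and 4 (8.67% and 6.34% of all genes). Pdgfb, a growth factor, had 35.3, 31.1 and 34.2 CPM in Ctrl shRNA and 46.0, 45.3 and 44.2 CPM in the knockdown, and was higher without Ctrl shRNA replicate 2 (log2 fold change 0.37, adjusted p = 0.0478, edgeR). Vldlr, a lipoprotein receptor, had 37.1, 33.8 and 41.1 CPM in Ctrl shRNA and 16.9, 17.7 and 19.1 CPM in the knockdown, and was lower (log2 fold change -1.14, adjusted p = 0.00110, edgeR without Ctrl shRNA replicate 2). Stc2, a secreted glycoprotein, had 13.2, 11.3 and 14.4 CPM in Ctrl shRNA and 9.27, 7.58 and 8.09 CPM in the knockdown, and was also lower (-0.74, adjusted p = 0.0276, edgeR without Ctrl shRNA replicate 2). With all 6 libraries the adjusted p in edgeR was 0.180 for Pdgfb, 0.0575 for Vldlr and 0.245 for Stc2.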

How the data were processed

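The RNA-seq series holds 6 MLE12 libraries, which were put into Ctrl shRNA (n = 3) and knockdown (n = 3) by sample title. The authors deposited raw read counts per gene and FPKM values, with gene lengths, per the file headers. The submitters' processing notes name HISAT2 2.0.5, StringTie 1.3.3b, featureCounts 1.5.0-p3 and mm10. The use of strand in counting is not given in the sources used here, and the number of sample columns not used was 0.

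Counts were filtered with filterByExpr, scaled with TMM and fitted in edgeR 4.0.16 (R 4.3.3) by glmQLFit and glmQLFTest without covariates, with p-values adjusted by the Benjamini-Hochberg method across the tested genes. The methods name no test for these data. The alternatives were DESeq2 1.42.0, limma 3.58.1 with voom and sample quality weights, limma on log2(FPKM + 1) and log2(FPKM + 0.1), 2 other scalings, no filter, at least 10 counts in every sample, a replicate block and each library left out. Levels between genes were compared on the FPKM scale. Shared 50-base stretches were counted in GENCODE M21 transcripts. The positions of 33 of the 36 rows are the same in GENCODE M21. Replicates of a group differed by more than sampling noise (chi-square per degree of freedom 5.67 to 454). The tests were checked on simulated counts, in which all libraries had the same spread. No simulated library stood apart, so that this check does not cover a library such as Ctrl shRNA replicate 2. Python 3.11.15 with matplotlib 3.10.9 and pandas 2.3.3 served for tables and figures.

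The members and lists were chosen with earlier results of these data known. Values in every sample are given for members called by edgeR, by edgeR without Ctrl shRNA replicate 2 or by DESeq2, for the highest and lowest fold change of each step and for its most abundant member by FPKM. Of the related lists, genes called in those same fits are named. Genes called only in other fits are counted, and 6 of them are named after their values were seen. Other per-sample values (Aldoc, Gapdh) were chosen after the data were seen.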

Additional observations from a re-analysis of the deposited data

How the results depend on the processing

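The number of members called depended on the test and on Ctrl shRNA replicate 2. It was 0 higher and 0 lower with all libraries in edgeR under the other scalings, with no filter, with at least 10 counts in every sample and on both FPKM scales in limma. DESeq2 gave 6 higher, limma with quality weights gave 8 higher and 2 lower, and DESeq2 without Ctrl shRNA replicate 2 gave 7 higher and 2 lower, also against the 3 and 0 of edgeR on those 5 libraries. Leaving out each library in turn gave 0 to 3 members higher, the 3 arising without Ctrl shRNA replicate 2, and 0 lower. For the related genes, DESeq2 gave 4 higher and 3 lower, limma with quality weights 12 and 10, DESeq2 without Ctrl shRNA replicate 2 gave 7 and 5, no filter gave 1 lower, and leaving out a library gave 0 to 2 higher and 0 to 3 lower. Scaling by library size only moved the median log2 fold change of all genes to 0.16. It gave medians of 0.27 for all members, 0.33 for hexokinase to PFK, 0.28 for aldolase to pyruvate kinase, 0.59 for lactate, 0.24 for Hif1a and 0.15 for HIF targets, so that HIF targets changed sign and lay below the median of all genes. Glucose uptake had a median of 0.84 with at least 10 counts in every sample, where Slc2a3 is not tested, and 0.057 by DESeq2 without Ctrl shRNA replicate 2. Aldolase to pyruvate kinase gave 0.16 with quality weights and 0.15 by DESeq2 without Ctrl shRNA replicate 2. Lactate gave 0.12 with quality weights, 0.23 on log2(FPKM + 1) and 0.24 by DESeq2 without Ctrl shRNA replicate 2. The HIF alpha median was 1.19 with no filter, where Epas1 enters. Leaving out a library gave medians from 0.056 to 0.37 for glucose uptake, from 0.15 to 0.28 for hexokinase to PFK, from 0.073 to 0.20 for aldolase to pyruvate kinase and from 0.23 to 0.44 for lactate. For HIF targets it gave -0.038 to 0.026, and quality weights gave 0.0058, so that the sign of this median was not stable. Among 16 genes followed through the alternatives (Slc2a3 and Ldhb through 15, since they do not reach 10 counts in every sample), those that changed sign were Ldhb (-0.32 with quality weights), Slc16a1 (0.093 by library size only), Ankrd37 (0.54 with quality weights and 0.51 by DESeq2 without Ctrl shRNA replicate 2, with -1.07 to 0.51 when a library was left out) and Hif1a (-0.020 to 0.14 when a library was left out). Among the other members, Pfkfb2, P4ha1 and P4ha2 changed sign without Ctrl shRNA replicate 2. Where no construction is named, the cause was not tested. Slc2a1, Hk2, Pfkl, Eno1, Ldha, Slc16a3, Gpi1, Pkm, Bhlhe40 (0.10 to 0.37) and Vegfa (0.054 to 0.28) stayed above 0 in all 16 alternatives, and Slc2a1 ranged from 0.72 to 1.03.

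With the replicate number as a block, 0 members were higher and 0 lower, and the median was 0.12. The numbers do not pair the libraries, since the deviations of same-numbered libraries correlated at -0.251, -0.191 and 0.00953. The replicate block gave 0 related genes in either direction. The biological coefficient of variation was 0.263 with Ctrl shRNA replicate 2 and 0.102 without it.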
